A study of Mus musculus with 6 samples.

Results

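The calpains are cysteine proteases that cut their substrates at a few sites when intracellular calcium rises, and calpastatin is the protein that inhibits the conventional members. The 10 genes described here were the rows of the deposited count table with the symbols Capn1, Capn2, Capn3, Capn5, Capn6, Capn7, Capn10, Capn15, Capns1 and Cast, out of 24421 rows, and all 10 passed the filter on low counts. RNA had been sequenced from 3-dimensional engineered muscle, in which C2C12 cells (myoblasts of an established mouse line, able to fuse into myotubes) were suspended in collagen and held between artificial tendons. The tested constructs received tumour necrosis factor alpha (TNF-alpha) at 100 ng/mL for 72 h and the control constructs received phosphate-buffered saline, the vehicle, with 3 constructs in each group. All constructs came from the same line and the same differentiation in horse serum. The labels number the constructs of a group as biological replicates but do not say whether they were made from separate cultures, so the p-values measure only the spread between these samples, which may be technical.

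In muscle, calpain 1 and calpain 2 are heterodimers of a catalytic subunit, encoded by Capn1 or Capn2, and the small regulatory subunit encoded by Capns1. They are known for cutting cytoskeletal and Z-disc anchoring proteins, a step that can release filaments from the sarcomere before other proteases degrade them. Calpain 3, the product of Capn3, is the muscle-enriched calpain, which binds titin, and its loss in humans causes a limb-girdle muscular dystrophy. The other members, Capn5, Capn6, Capn7, Capn10 and Capn15, encode calpains that lack the calcium-binding domain shared by the classical enzymes, and calpain 6 also lacks the catalytic cysteine.

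The libraries held 85429933 to 93533748 counts in the TNF-alpha group and 81713008 to 93030292 counts in the vehicle group. A gene was called risen or fallen with TNF-alpha at an adjusted p under 0.05 (Benjamini-Hochberg, over 15792 genes) in the quasi-likelihood test of edgeR, which called 4366 risen and 4403 fallen. Of the 5 myotube markers, Ckm, Myh3 and Des fell, Myog rose and Acta1 was not past the test, and their summed level was 6162 to 7108 CPM (counts scaled to the effective library size) in TNF-alpha libraries and 8219 to 9599 CPM in vehicle libraries. The Des call (adjusted p = 0.0498) was lost when any one of the 6 libraries was left out (adjusted p = 0.0587 to 0.136). The undifferentiated-myoblast markers summed to 257 to 384 CPM with TNF-alpha and 215 to 326 CPM with vehicle, with Ccnd1 (258 ± 43.5 CPM with TNF-alpha, 81.6 ± 19.0 CPM with vehicle) and Myf5 risen. The other 3, Pax7 and the proliferation genes Mki67 and Top2a, fell, with Mki67 at 13.7 ± 10.4 CPM with TNF-alpha and 74.3 ± 15.4 CPM with vehicle. For Myf5 the groups overlapped, at 11.2 to 14.4 CPM with TNF-alpha and 7.1 to 11.4 CPM with vehicle (adjusted p = 0.0413). The 5 fibroblast or adipogenic markers summed to 5966 to 6318 CPM with TNF-alpha and 2174 to 2568 CPM with vehicle, and Dcn, which rose, carried nearly all of that sum. Pdgfra also rose, whereas Col1a1 fell to 108 ± 8.65 CPM with TNF-alpha, against 273 ± 64.1 CPM with vehicle. The 5 macrophage markers summed to 20.8 to 22.5 CPM and 5.29 to 5.52 CPM, with Cd68 and Csf1r risen and the pan-leukocyte gene Ptprc at 0 in all TNF-alpha libraries. The endothelial markers summed to 0.835 to 0.919 CPM and 0.396 to 0.978 CPM, with Tie1 at 0 in all 6 libraries, and the neural or glial markers to 21.1 to 26.3 CPM and 43.1 to 69.5 CPM, mostly Tubb3. As all constructs came from the C2C12 line, the non-muscle markers are given as transcript levels, not as numbers of such cells. Whether these shifts contribute to the calpain results was not tested, and in bulk RNA fewer cells of a type and less RNA per cell cannot be told apart.

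Transcripts of 5 of the 10 members fell with TNF-alpha, while that of the inhibitor calpastatin rose. Capn3, Capn6, Capn2, Capns1 and Capn7 fell, Cast and Capn10 rose, and Capn1, Capn5 and Capn15 were not past the test. The 5 members fallen compare with 27.9% of all tested genes fallen, and the 2 members risen with 27.6% of all tested genes risen. In all, 7 of the 10 members were past the test, against 55.5% of all tested genes, so a member past the test is not unusual in these data. The members' median log2 fold change was -0.19 and that of all tested genes 0.00. By size, 2 members, Capn3 and Capn6, fell by at least 2-fold, as did 9.46% of all tested genes, and none rose by that much, as 8.47% of all tested genes did. The same 7 members had no overlap between their TNF-alpha and vehicle libraries, which was also true of 64.5% of all tested genes.

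**Figure D1:**
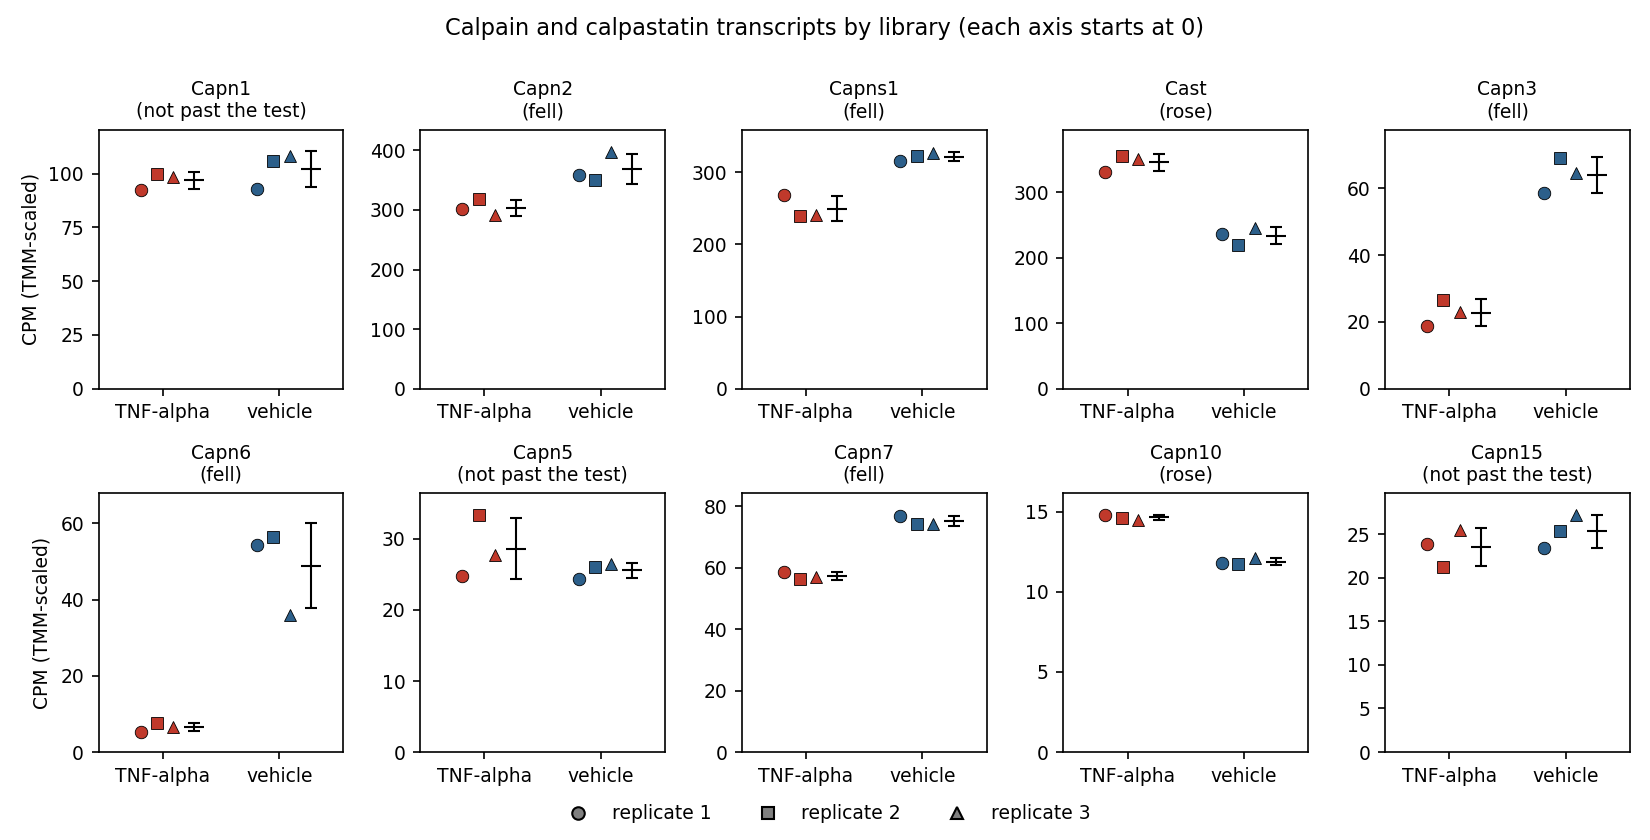
TMM-scaled CPM of the 10 calpain and calpastatin transcripts in each library (symbols are replicates 1 to 3, bars to the right of each group are mean ± SD, n = 3, and every vertical axis starts at 0). The TNF-alpha libraries of Capn6 sat between 5.39 and 7.54 CPM, below all vehicle libraries at 36 to 56.5 CPM, whereas the groups overlapped for Capn1, Capn5 and Capn15.

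**Figure D2:**
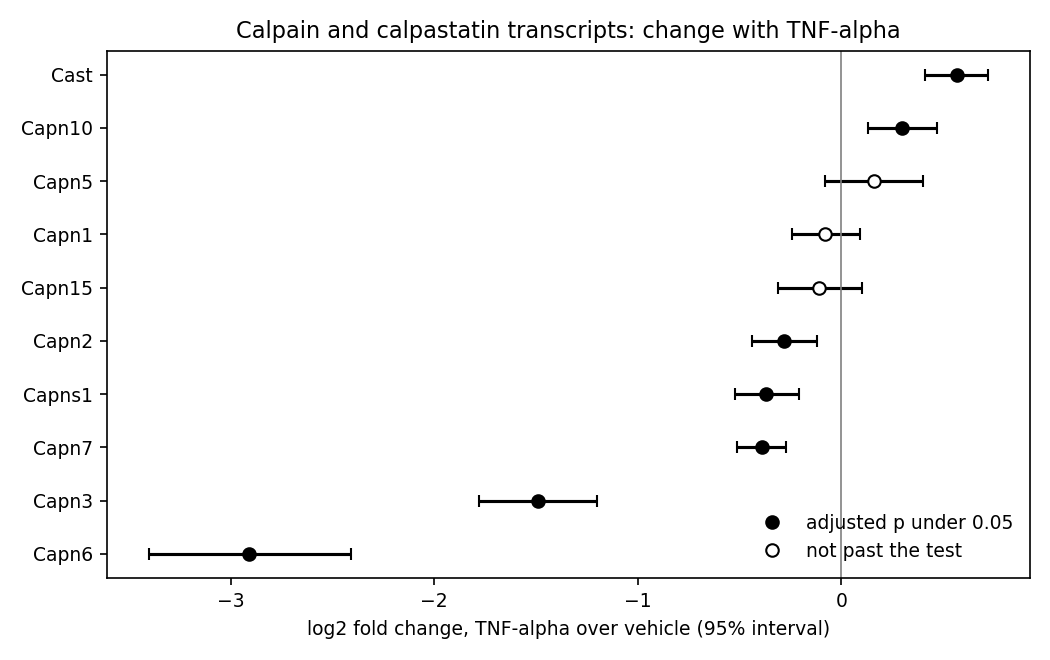
Log2 fold change of each member, TNF-alpha over vehicle, with its 95% interval from edgeR; filled points passed an adjusted p of 0.05. Capn6 at -2.91 and Capn3 at -1.49 stand well below the other members, which lie between -0.39 and 0.57.

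The start regions of the members with the largest falls, Capn3 and Capn6, and of the member with the largest rise, Cast, are printed here because they are the sequences nearest to the changes described below. They come from RefSeq on GRCm38.p6 and run 5′ to 3′ on the gene's own strand, from 250 bases before to 50 bases after an annotated start. RefSeq windows were found for 9 of the 10 members, 16 windows in all. Capitals mark matches on either strand to the MEF2 consensus, to the AP-1 letters TGANTCA or to the NF-kB consensus, and no match overlaps another.
Capn3 (chr2:120463343-120463642, plus strand): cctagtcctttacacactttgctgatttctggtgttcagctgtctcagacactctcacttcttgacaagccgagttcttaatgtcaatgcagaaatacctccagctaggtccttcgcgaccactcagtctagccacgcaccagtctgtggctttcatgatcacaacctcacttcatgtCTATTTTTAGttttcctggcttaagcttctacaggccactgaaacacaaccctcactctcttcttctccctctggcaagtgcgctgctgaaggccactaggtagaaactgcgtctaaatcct
Capn6 (chrX:143827363-143827662, minus strand): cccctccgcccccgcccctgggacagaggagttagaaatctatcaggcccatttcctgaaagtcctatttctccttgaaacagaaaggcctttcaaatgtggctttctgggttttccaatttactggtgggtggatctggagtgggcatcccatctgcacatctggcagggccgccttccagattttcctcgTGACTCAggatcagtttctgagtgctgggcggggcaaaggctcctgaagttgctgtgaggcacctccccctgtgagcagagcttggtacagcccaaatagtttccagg
Cast (chr13:74808711-74809010, minus strand, the most upstream of 4 annotated starts): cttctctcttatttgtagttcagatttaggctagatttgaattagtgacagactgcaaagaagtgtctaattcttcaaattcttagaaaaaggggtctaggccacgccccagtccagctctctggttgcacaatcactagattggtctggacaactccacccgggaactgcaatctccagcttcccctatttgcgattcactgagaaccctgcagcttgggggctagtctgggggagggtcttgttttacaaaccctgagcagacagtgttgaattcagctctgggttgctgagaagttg
The Capn3 window held the only MEF2 match among the 16, beginning at base -72 from the start, where 3.19% of all 32851 RefSeq windows of this length hold one. The other RefSeq start of Capn3, further downstream, had none. In GENCODE M21 the gene begins at 120456019, upstream of both RefSeq windows, and no window covers that end. Counts per gene do not tell which start was used. The AP-1 letters were found in 2 of the 16 windows, at base -58 in Capn6 and at base -183 in Capn2, against 7.81% of all windows. The NF-kB consensus was in none of the 16 windows and in 8.46% of all windows. The E-box letters CANNTG, the core that myogenic factors bind, were in 13 of the 16 windows and in 72.3% of all windows. The 16 windows are not all separate sequences. The Capn15 windows chr17:25985747-25986046 and chr17:25985825-25986124 overlap and hold the same E-box site, counted in each. These matches describe letters and not binding.

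Calpastatin, the inhibitor of calpain 1 and calpain 2, rose. Cast (GRCm38 chromosome 13, 74692368 to 74808810, minus strand) had 331, 356 and 351 CPM in the TNF-alpha libraries, against 236, 220 and 246 CPM in the vehicle libraries. The lowest TNF-alpha library was above the highest vehicle library, and the replicate SD was 3.76% of the mean with TNF-alpha and 5.5% with vehicle. The change was 1.48-fold (log2 fold change 0.57 ± 0.07 SE, 95% interval 0.41 to 0.72, adjusted p = 1.39e-04), and 17.1% of all tested genes had a higher log2 fold change. Cast shares 834 exon bases with Erap1, an aminopeptidase gene on the opposite strand, and its counts carried decimals in all 6 libraries. Erap1 had 19.6 to 23.1 CPM with TNF-alpha and 14.5 to 20.7 CPM with vehicle (log2 fold change 0.25 ± 0.13, adjusted p = 0.141). The Cast group means differed by 112 CPM, and whether reads from Erap1 enter the Cast count was not tested.

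Of the conventional catalytic subunits, Capn2 fell and Capn1 was not past the test. Capn1 (chromosome 19, 5988545 to 6015897, minus strand) had 92.5, 100 and 98.5 CPM with TNF-alpha, against 92.7, 106 and 108 CPM with vehicle. The groups overlapped, and the log2 fold change of -0.08 ± 0.07 had a 95% interval of -0.24 to 0.09 (adjusted p = 0.387). Capn1 shares 394 exon bases with the antisense gene Gm10814, which had 6.28 to 6.82 CPM with TNF-alpha and 6.59 to 7.78 CPM with vehicle. Capn1 counts carried decimals in 3 libraries, and whether reads from Gm10814 enter them was not tested. Capn2 (chromosome 1, 182467260 to 182517608, minus strand) had 301, 318 and 292 CPM with TNF-alpha, against 358, 351 and 397 CPM with vehicle. All TNF-alpha libraries were below all vehicle libraries, a fall of 0.28 ± 0.07 on the log2 scale, or 1.21-fold (adjusted p = 0.00947). Capn2 shares 1717 exon bases with the antisense gene Gm37885, which has no row in the count table. Whether reads from Gm37885 enter the Capn2 count was not tested. A test of the difference between the Capn1 and Capn2 changes was not run, and the interval of Capn2, -0.44 to -0.12, overlaps that of Capn1.

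Capns1, the small subunit that calpain 1 and calpain 2 share, also fell. It lies on chromosome 7, 30186936 to 30198811, minus strand, and had 269, 239 and 240 CPM with TNF-alpha, against 315, 322 and 327 CPM with vehicle. The vehicle libraries lay close together, with an SD of 1.88% of their mean, and all of them were above the TNF-alpha libraries. The fall was 0.37 ± 0.07 on the log2 scale, or 1.29-fold (adjusted p = 0.0017). Capns1 shares 202 exon bases with the antisense gene Gm26810, which has no row in the count table. Whether reads from Gm26810 enter the Capns1 count was not tested.

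Capn3, the calpain that anchors to titin in the sarcomere, had the second largest fall of the members. The gene (chromosome 2, 120456019 to 120504913, plus strand) had 18.8, 26.7 and 23.0 CPM with TNF-alpha, against 58.5, 69.0 and 64.5 CPM with vehicle. The highest TNF-alpha library was well under the lowest vehicle library. The level was 2.80-fold lower with TNF-alpha (log2 fold change -1.49 ± 0.13, 95% interval -1.78 to -1.20, adjusted p = 3.68e-05), and 6.15% of all tested genes had a lower log2 fold change. Capn3 shares 386 exon bases with Ganc, a glucosidase gene on the same strand, which had 12 to 12.8 CPM with TNF-alpha and 16.0 to 18.9 CPM with vehicle (log2 fold change -0.49 ± 0.09, adjusted p = 0.00148). Capn3 counts were whole in all 6 libraries, and whether reads from Ganc enter the Capn3 count was not tested.

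Capn6, the calpain without a catalytic cysteine, had the largest fall. In mice it is known from embryonic muscle, where its loss speeds muscle development. The gene (chromosome X, 143802231 to 143827414, minus strand) had 5.39, 7.54 and 6.65 CPM with TNF-alpha, against 54.2, 56.5 and 36 CPM with vehicle. Vehicle replicate 3 was lower than the other vehicle libraries, yet the groups were far apart. The level was 7.49-fold lower with TNF-alpha (log2 fold change -2.91 ± 0.21, 95% interval -3.40 to -2.41, adjusted p = 3.58e-05), and 1.61% of all tested genes had a lower log2 fold change. With an SD of 16.6% of the mean with TNF-alpha and 23.0% with vehicle, it was the member with the widest relative spread in the vehicle group. Capn6 shares 122 exon bases with the microRNA gene Gm47298 on the same strand, which has no row in the count table.

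Of the remaining calpains, Capn7 fell and Capn10 rose, both by small amounts with tight replicates. Capn7 (chromosome 14, 31336638 to 31371986, plus strand), whose product binds proteins of the endosomal sorting machinery, had 58.6, 56.2 and 56.9 CPM with TNF-alpha, against 77.0, 74.1 and 74.3 CPM with vehicle. The groups did not overlap and the fall was 0.39 ± 0.05 on the log2 scale, or 1.31-fold (adjusted p = 3.07e-04). Capn7 shares 116 exon bases with Sh3bp5 on the opposite strand, which itself fell to 26.4 ± 1.71 CPM with TNF-alpha, against 52.8 ± 4.09 CPM with vehicle (SD, n = 3; log2 fold change -1.0 ± 0.08, adjusted p = 1.48e-05). Whether reads from Sh3bp5 enter the Capn7 count was not tested.

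Capn10, whose human gene has been studied for its association with type 2 diabetes, lies on chromosome 1, 92934376 to 92947941, plus strand. It had 14.8, 14.6 and 14.5 CPM with TNF-alpha, against 11.8, 11.7 and 12.1 CPM with vehicle. The groups did not overlap, and the rise was 1.23-fold (log2 fold change 0.30 ± 0.08, adjusted p = 0.00895). Capn10 shares 639 exon bases with the antisense gene 9430060I03Rik, which had 1.33 to 1.40 CPM with TNF-alpha and 0.982 to 1.24 CPM with vehicle (adjusted p = 0.164). The Capn10 group means differed by 2.75 CPM, and its counts carried decimals in 3 libraries. Whether reads from 9430060I03Rik enter the Capn10 count was not tested.

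Capn5 and Capn15 were not past the test. Capn5 (chromosome 7, 98121559 to 98178274, minus strand), whose human gene is mutated in an inherited eye inflammation, had 24.8, 33.3 and 27.8 CPM with TNF-alpha, against 24.4, 26.0 and 26.4 CPM with vehicle (log2 fold change 0.16 ± 0.11, 95% interval -0.08 to 0.40, adjusted p = 0.219). TNF-alpha replicate 1 lay among the vehicle libraries, and without it the log2 fold change was 0.26 with an adjusted p of 0.0433, in a range of 0.0433 to 0.742 over the alternatives tried. Capn15 (chromosome 17, 25958364 to 25985796, minus strand), the mammalian relative of the fly gene small optic lobes, had 23.9, 21.2 and 25.5 CPM with TNF-alpha, against 23.4, 25.3 and 27.2 CPM with vehicle. Those groups overlapped (log2 fold change -0.11 ± 0.09, 95% interval -0.31 to 0.10, adjusted p = 0.35). Capn15 shares 1105 exon bases with D630044L22Rik and 14 with Gm26694, both on the opposite strand and without a row in the count table. Whether their reads enter the Capn15 count was not tested.

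Levels of different members can be compared only per length, here as CPM per kilobase of the union of annotated exons. On that scale Capns1 was the most abundant member in both groups, at 101 ± 6.89 with TNF-alpha and 130 ± 2.43 with vehicle (SD, n = 3), followed by Capn2 at 47.9 ± 2.11 and 58.1 ± 3.92. With TNF-alpha the order went on with Cast (30.2 ± 1.13) and Capn1 (29.0 ± 1.21), whose libraries overlapped. With vehicle Capn1 (30.7 ± 2.56) was above Cast (20.4 ± 1.12) in all libraries. Capn7 came next in both groups. Below it, with TNF-alpha, Capn5 (5.22 ± 0.79), Capn3 (4.55 ± 0.79) and Capn15 (4.10 ± 0.38) were neighbours whose libraries overlapped, then Capn10 (3.37 ± 0.03), with Capn6 last at 0.838 ± 0.139. With vehicle Capn3 (12.7 ± 1.04) was above Capn6 (6.27 ± 1.44), and the libraries of Capn6 overlapped those of Capn5 (4.66 ± 0.19), as did those of Capn5 and Capn15 (4.41 ± 0.33), while Capn10 was last. On the exon scale Capn6 thus held rank 10 of 10 with TNF-alpha and rank 7 with vehicle. The order depends on the length used. The union of Cast exons, 11470 bases from many alternative transcripts, is long against its coding length of 2559 bases, and per kilobase of coding sequence Cast was above Capn1 in both groups (135 ± 5.09 and 45.4 ± 1.89 with TNF-alpha, 91.3 ± 5.02 and 47.9 ± 4.0 with vehicle). On that coding scale the vehicle mean of Capn6 (25.4 ± 5.84) was above that of Capn3 (22.9 ± 1.87), and Capn6 held rank 6.

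**Figure D3:**
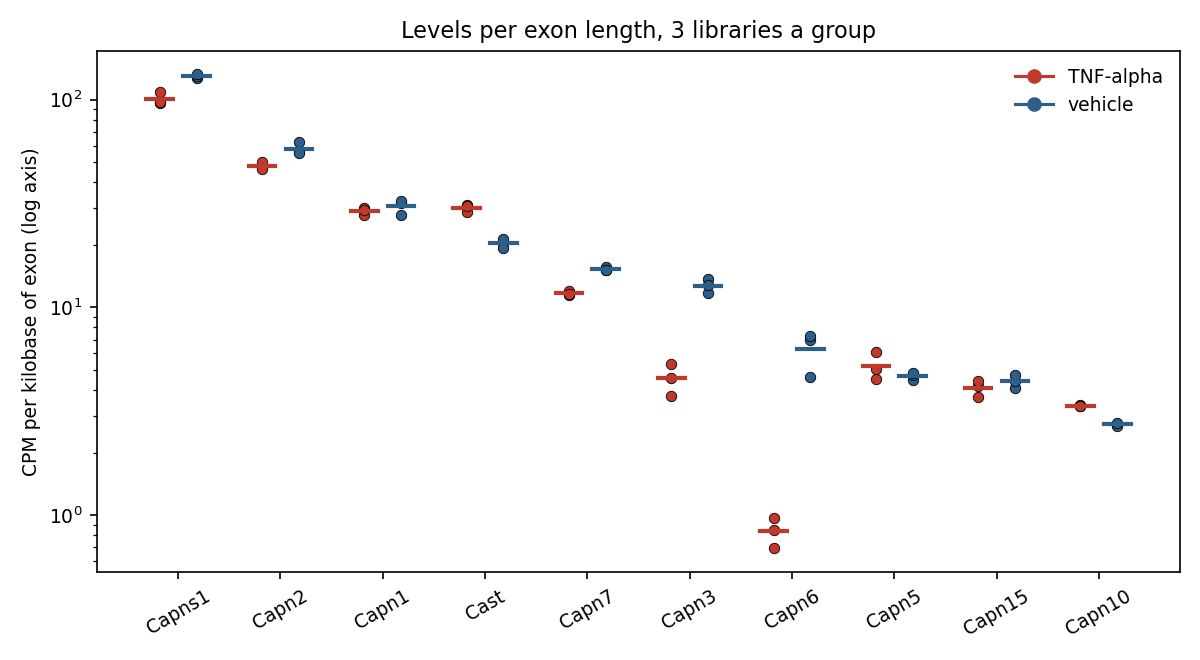
CPM per kilobase of exon (log axis) of each member, with points for the 3 libraries of a group and a line at their mean, TNF-alpha left of vehicle. Capns1 and Capn2 were highest in both groups, and Capn6 was at 0.838 with TNF-alpha against 6.27 with vehicle. On this exon scale Cast reached the level of Capn1 with TNF-alpha, whereas per kilobase of coding sequence it was above Capn1 in both groups.

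Ratios of transcripts within a library do not depend on library scaling. Their differences between groups depend little on the length used, but the ratios themselves depend on it, and exon length was used here. Per coding length the mean log2 ratio of Cast to Capn1 was 1.58 with TNF-alpha and 0.93 with vehicle. No test was made on these ratios. The log2 ratio of Cast to Capn1 was 0.06, 0.05 and 0.05 with TNF-alpha, against -0.43, -0.73 and -0.60 with vehicle, a difference of 0.64 between means. The log2 ratio of Cast to Capn2 was -0.71, -0.69 and -0.59 with TNF-alpha, against -1.46, -1.53 and -1.55 with vehicle, a difference of 0.84. Neither ratio overlapped between groups, so the transcript of the inhibitor was more abundant relative to that of each catalytic subunit in every TNF-alpha library. The log2 ratio of Capns1 to the sum of Capn1 and Capn2 was 0.53, 0.26 and 0.36 with TNF-alpha, against 0.59, 0.58 and 0.47 with vehicle. Here the groups overlapped, with a difference of -0.16. The log2 ratio of Capn3 to that sum was -4.33, -3.92 and -4.04 with TNF-alpha, against -2.85, -2.67 and -2.89 with vehicle. Per exon length Capn3 thus stood at 0.0585 of the conventional pair with TNF-alpha and 0.143 with vehicle. Per coding length it stood at 0.0426 with TNF-alpha and 0.102 with vehicle. Together the 10 members summed to 1136 to 1172 CPM in TNF-alpha libraries and 1250 to 1318 CPM in vehicle libraries.

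**Figure D4:**
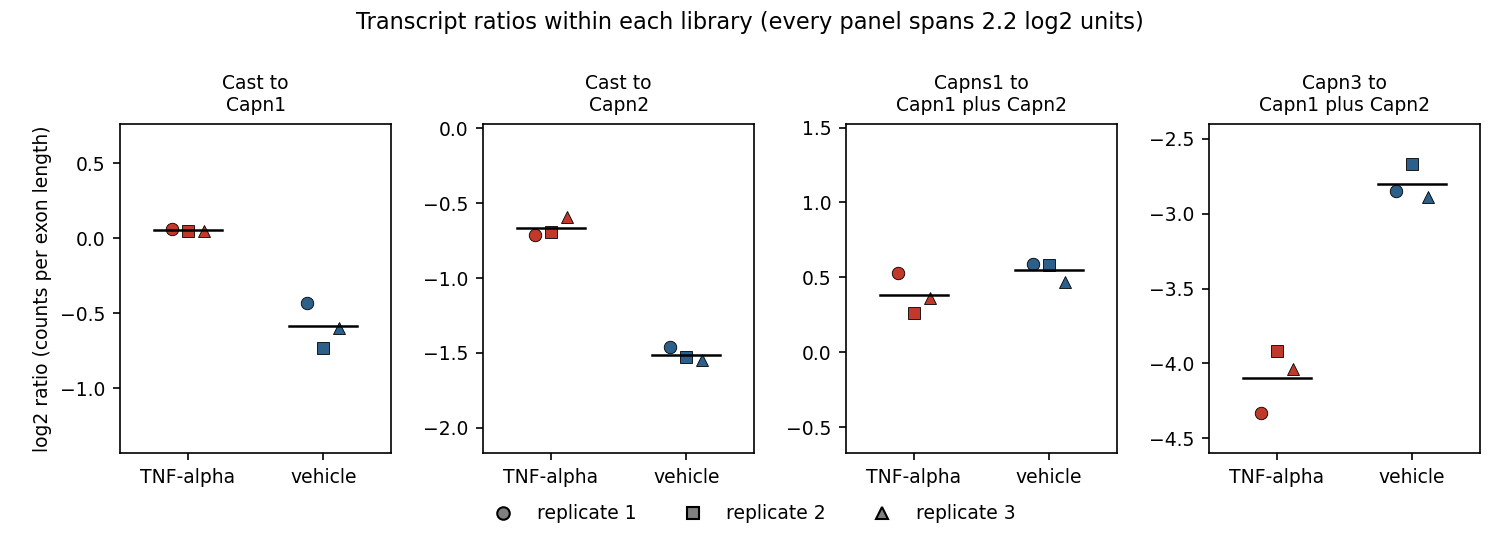
Log2 ratios of counts per exon length within each library, TNF-alpha left of vehicle, with a line at each group mean (symbols are replicates, and every panel spans the same height). Both ratios of Cast to a catalytic subunit were higher in all TNF-alpha libraries, that of Capn3 was lower, and that of Capns1 overlapped between the groups.

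The transcripts most like Capn3 and Cast across the 6 libraries were found by Pearson correlation of log2 CPM with the 10803 named genes of at least 5 mean CPM in a group. For Capn3 these were Prr33 (r = 0.9992), Tspan8 (0.9991) and Man1c1 (0.999), and for Cast they were Fchsd1 (0.9993), Plat (0.999) and Map2k6 (0.9988). Man1c1, a Golgi mannosidase gene, had 39.4 ± 3.94 CPM with TNF-alpha and 81.3 ± 3.84 CPM with vehicle (SD, n = 3). Plat, the tissue plasminogen activator gene, had 246 ± 16.9 CPM with TNF-alpha and 84.6 ± 10.5 CPM with vehicle. With 6 libraries in 2 separated groups such values are common, since 1303 genes correlated with Capn3 and 1338 with Cast at r above 0.95, so they are given as a description only.

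Genes outside the 10 members give the setting, starting with the rest of the family. Capn8, Capn9 and Capn13 had at most 4 counts in any library and were not tested. Capn12, a calpain known from skin and hair follicles, had 7.43, 7.10 and 6.28 CPM with TNF-alpha, against 10.6, 11 and 10.7 CPM with vehicle, and fell (log2 fold change -0.63 ± 0.10, adjusted p = 7.31e-04). Capns2, a second small-subunit gene, had 6, 4 and 3 counts with TNF-alpha, against 51, 37 and 12 counts with vehicle, and fell (log2 fold change -2.90 ± 0.64, adjusted p = 0.00455). At such counts it was a small fraction of Capns1. Capn11, best known from testis, had 97, 65 and 69 counts with TNF-alpha, against 46, 48 and 46 with vehicle, and rose (log2 fold change 0.74 ± 0.24, adjusted p = 0.0246). Its call was lost without TNF-alpha replicate 1 (adjusted p = 0.0878) or 3 (0.0558) and without vehicle replicate 1 (0.0509), 2 (0.0637) or 3 (0.0579), in a range of 0.022 to 0.0878.

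Genes for known calpain substrates of muscle mostly fell. The test called 12 of 18 fallen and 3 risen and left 3 uncalled, where 27.9% of all tested genes fell and 27.6% rose. The median log2 fold change was -0.40, against 0.00 over all tested genes. The 12 include Des, whose call was lost in 10 of 15 alternatives, and between 12 and 16 of the 18 were past the test over the alternatives, against 15 here. Neb, the giant ruler of the thin filament, fell to 240 ± 17.8 CPM with TNF-alpha, against 612 ± 58.3 CPM with vehicle (log2 fold change -1.35 ± 0.09, adjusted p = 6.21e-06). Tnnt3, fast troponin T, had 511 ± 29.2 CPM with TNF-alpha and 1024 ± 65.4 CPM with vehicle (-1.0 ± 0.08, adjusted p = 1.38e-05). Ttn, the titin gene and the anchor of calpain 3, was chosen after its values were seen. It had 842, 967 and 1014 CPM with TNF-alpha, against 1899, 2187 and 2062 CPM with vehicle (-1.12 ± 0.09, adjusted p = 2.07e-05). Of the substrates that rose, Ptk2, the focal adhesion kinase gene, had 139 ± 1.11 CPM with TNF-alpha and 112 ± 2.89 CPM with vehicle (0.31 ± 0.05, adjusted p = 0.00104). Tln1, encoding talin, had 875 ± 98.3 CPM with TNF-alpha and 706 ± 25.3 CPM with vehicle (0.31 ± 0.09, adjusted p = 0.0181). The Tln1 call was lost without TNF-alpha replicate 2 (adjusted p = 0.0624) or 3 (0.0893) and without vehicle replicate 1 (0.0625) or 2 (0.0548), in a range of 0.00248 to 0.0893. The remaining risen gene, Nfkbia, was named after its values were seen. It had 299 ± 7.06 CPM with TNF-alpha and 151 ± 55.6 CPM with vehicle (0.98 ± 0.26, adjusted p = 0.0198). The Nfkbia call was lost in 4 of 15 alternatives, in a range of 7.91e-04 to 0.0668.

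Membrane repair, in which calpains take part together with dysferlin and annexins, was mixed. The test called 7 of 11 genes fallen and 2 risen and left 2 uncalled, beside 27.9% fallen and 27.6% risen over all tested genes (median log2 fold change -0.33). Anxa6 fell to 294 ± 11.1 CPM with TNF-alpha, against 660 ± 30.6 CPM with vehicle (-1.17 ± 0.07, adjusted p = 2.69e-06). Trim72, the muscle repair factor MG53, had 142 ± 8.63 CPM with TNF-alpha and 269 ± 45.2 CPM with vehicle (-0.92 ± 0.12, adjusted p = 3.35e-04). The members that rose were both annexin genes, Anxa2 at 1157 ± 61.6 CPM with TNF-alpha and 788 ± 83.5 CPM with vehicle (0.55 ± 0.09, adjusted p = 9.89e-04) and Anxa5 with a log2 fold change of 0.45 ± 0.08 (adjusted p = 0.00141). Dysf itself, chosen after its values were seen, had 71.8 ± 4.46 CPM with TNF-alpha and 101 ± 14.6 CPM with vehicle (-0.49 ± 0.10, adjusted p = 0.00424).

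Of the 12 genes of calcium entry, release and reuptake, the ion that activates calpains, the test called 8 fallen and 1 risen and left 3 uncalled, beside 27.9% and 27.6% over all tested genes (median log2 fold change -0.92). Cacna1s, the voltage sensor of excitation, fell to 64.5 ± 5.87 CPM with TNF-alpha, against 304 ± 60.2 CPM with vehicle (-2.24 ± 0.15, adjusted p = 2.08e-05). Casq2, a calcium store protein, had 345 ± 13.8 CPM with TNF-alpha and 703 ± 13.8 CPM with vehicle (-1.03 ± 0.06, adjusted p = 4.13e-06). The gene that rose was Trpc1, a cation channel, at 5.73 ± 0.56 CPM with TNF-alpha and 3.14 ± 0.46 CPM with vehicle (0.87 ± 0.15, adjusted p = 0.00113).

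The list of other muscle proteolysis genes, which spans cathepsins, ubiquitin ligases and autophagy receptors, held 5 genes that rose and none that fell among 11 tested (median log2 fold change 0.36), and 6 were not past the test. Over all tested genes 27.6% rose and 27.9% fell. Of the 5 that rose, Ctsd, the cathepsin D gene (0.41 ± 0.12, adjusted p = 0.0155), lost its call without TNF-alpha replicate 3 (adjusted p = 0.0519). Without TNF-alpha replicate 1, 8 of the 11 were past the test, the added genes being Fbxo32 and Fbxo30 as risen and Map1lc3b as fallen (log2 fold change -0.26, adjusted p = 0.0394). Trim63, the muscle ubiquitin ligase MuRF1, had 46.8 ± 9.19 CPM with TNF-alpha and 62.4 ± 8.23 CPM with vehicle (-0.42 ± 0.16, adjusted p = 0.0577). It was past the test as fallen in 6 of 15 alternatives, among them DESeq2 (adjusted p = 0.0136), limma-voom (0.0361) and the replicate block (0.00287), in a range of 0.00287 to 0.153. Map1lc3b, encoding an autophagosome protein, was so in 3 of 15. Ctsd, Fbxo32, Fbxo30, Map1lc3b and Trim63 were chosen after their values were seen. Ctsl, the lysosomal protease cathepsin L, rose to 1739 ± 119 CPM with TNF-alpha, against 848 ± 38.6 CPM with vehicle (1.04 ± 0.08, adjusted p = 1.25e-05). Sqstm1, the autophagy receptor p62, had 1918 ± 124 CPM with TNF-alpha and 903 ± 72.1 CPM with vehicle (1.09 ± 0.09, adjusted p = 1.70e-05). The differences in these proteolysis genes and in the calpains were not tested against each other.

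**Figure D5:**
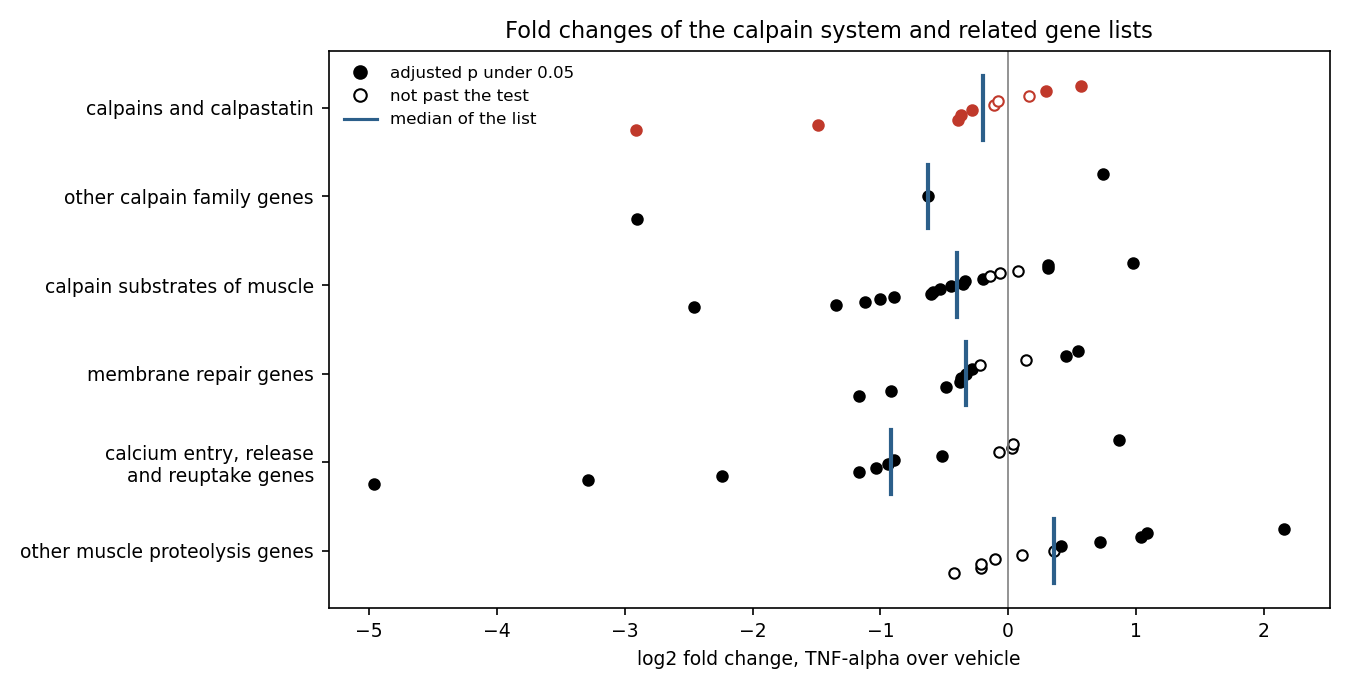
Log2 fold changes, TNF-alpha over vehicle, of the 10 members (red) and of the genes tested in 5 related lists (black), with filled points past an adjusted p of 0.05 and a line at each list's median. The medians were -0.40 for the substrates, -0.92 for the calcium genes and 0.36 for other proteolysis genes, against -0.19 for the calpains and calpastatin.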

How the data were processed

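Gene expression was measured by RNA sequencing of polyadenylated RNA (a stranded mRNA kit, paired-end reads, per the labels' protocols) in 6 engineered muscle constructs, 3 per group, with groups taken from the sample titles. The authors deposited estimated counts per gene symbol: decimals occur in 20.1% to 21.0% of each library's values, against the integers that the design text announces. The submitters' processing notes name DESeq2, featureCounts (Subread 2.0.0), Bowtie2 2.3.5.1 and TopHat2 2.1.1 as tools and GRCm38 (mm10) as the build. The use of strand in counting is not given in the sources used here, so overlapping and antisense genes are uncertain. Counts were rounded, filtered with filterByExpr, scaled with TMM and tested with edgeR 4.0.16 (R 4.3.3), with glmQLFit, robust estimation, group as the only term and adjusted p-values over all 15792 genes. The unit differed from the whole counts the plan had assumed. SE values derive from the F statistic, and intervals cover 95%.

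Log2 CPM for correlations used a prior count of 2. The biological coefficient of variation was 12.1%. Positions and lengths come from GENCODE M21 (GRCm38), in which 23385 of the 24421 symbols were found. Cavin1 is Ptrf in the table. The members, the 5 lists, the named-gene rule (per list, the 2 smallest p in each direction among those past the test) and the motifs were chosen with earlier results of these data known. The procedure was also run on simulated counts drawn with the dispersions of this fit. Far fewer genes were changed there than were called here, so that run does not measure the error rates in these data. Replicates differed by more than sampling noise (chi-square per degree of freedom 22.0 to 66.9), so none was counted as a duplicate. Alternatives were RLE and upper-quartile scaling, no filter or a stricter filter, DESeq2 1.42.0, limma-voom (limma 3.58.1), no robust estimation, unrounded counts, a replicate block and leaving out each library.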

Additional observations from a re-analysis of the deposited data

How the results depend on the processing

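Across 15 alternatives each, the calls of the 10 members kept their direction and their side of the threshold, except Capn5, which passed without TNF-alpha replicate 1 (adjusted p = 0.0433). Its log2 fold change lay between 0.04 and 0.26 when one library was left out. The number of members fallen was 5 in each, and that of members risen 2 or 3. The log2 fold change ranged from -3.09 to -2.78 for Capn6, from -1.62 to -1.36 for Capn3 and from 0.52 to 0.60 for Cast. The highest adjusted p was 0.0471 for Capn2 and 0.0356 for Capn10, the calls nearest to the threshold. The filter of at least 1 CPM in 3 libraries left 1 other calpain family gene past the test in place of 3, since fewer of them were tested. Of the other proteolysis genes, 4 to 8 passed when one library was left out, and the cause was not tested. With one library left out, the log2 fold change ranged from -0.12 to 0.02 for Flna, from -0.01 to 0.11 for Itpr1 and from -0.04 to 0.10 for Orai1 (0.00 with upper-quartile scaling), reversing signs that were not past the test. Same-numbered libraries did not deviate together (correlations of 0.04, -0.05 and -0.11), and only those numbered 1 matched each other best. With the number as a replicate block 8486 genes were past the test in place of 8769, and no member's call changed. The difference in log2 ratio between groups kept its sign, from 0.57 to 0.72 for Cast to Capn1, 0.81 to 0.87 for Cast to Capn2, -0.24 to -0.10 for Capns1 and -1.38 to -1.18 for Capn3 to Capn1 plus Capn2. Capn8, Capn9 and Capn13, at 4 counts or fewer per library, were too low to test.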
